A study of Mus musculus with 36 samples.

Results

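The Bcl2 family of proteins sets whether a cell dies through its mitochondria, and the open chromatin around 10 of its genes was followed here: Bcl2, Bcl2l1, Mcl1, Bcl2l11, Bbc3, Pmaip1, Bid, Bad, Bax and Bak1. The measured features were DNase I hypersensitive sites (DHS), short stretches of chromatin that the enzyme DNase I cuts readily. A DHS belonged to a gene where it overlapped the gene or the 10 kb on either side of it in the GENCODE vM21 annotation of the mouse genome (build GRCm38, also called mm10). This gave 50 of the 52788 DHS, and none of them fell to more than 1 gene. Each DHS is named by its gene and the distance of its centre from the start of that gene.

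DNase-seq was run on 36 libraries of B3, a mouse pre-B lymphocyte line. The Ikaros line carried an MSCV retroviral vector encoding HA-Ikaros-ERt2, a tagged form of the transcription factor Ikaros joined to a hormone-binding domain, with IRES-GFP behind it. The Control line carried the same kind of vector with ERt2 and IRES-GFP but no Ikaros. Both were GFP-sorted populations of transduced cells, so the effect of Ikaros and any other difference between the 2 cell populations cannot be told apart. Each line was sampled at 0, 2, 6, 12, 18 and 24 h with 3 replicates, numbered 4, 5 and 6 and tied by the labels to batches 11, 12 and 13. Both lines received 0.5 µM 4-hydroxytamoxifen (4-OHT), the drug that carries ERt2 fusion proteins into the nucleus, at the stated time before collection. The labels name 4-OHT for the 0 h libraries too, whereas the study's methods state that these cells received none and were collected separately. Between 0 h and the later times, the drug and the separate collection therefore cannot be told apart.

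Family members fall into classes by role. Bcl2, Bcl2l1 (which encodes Bcl-xL) and Mcl1 are guardians that hold the death machinery in check at the outer mitochondrial membrane. Bcl2l11 (Bim), Bbc3 (Puma), Pmaip1 (Noxa), Bid and Bad are BH3-only proteins, which carry stress signals and bind the guardians. Bax and Bak1 are the effectors that form pores in the membrane and release cytochrome c. Developing B cells depend on this balance, and loss of Bcl2l11 or excess of Bcl2 lets lymphocytes accumulate. DNase-seq reads the openness of chromatin, and neither transcript nor protein levels were part of these data.

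The 50 DHS differed widely in base composition, and the sequences below show this for 7 DHS at which the lines differed at 0 h. They were chosen after their values were seen, and they were read from GRCm38 on the strand of the gene with the deposited coordinates taken as counting from 1, which leaves 1 bp open. Each is a stretch outside annotated untranslated regions, and capitals mark CpG dinucleotides. The first 5 stretches belong to DHS that were higher in the Ikaros line, and the last 2 to DHS that were lower in it.
Bcl2 DHS at -109 bp, chr1:106714374-106714533, minus strand: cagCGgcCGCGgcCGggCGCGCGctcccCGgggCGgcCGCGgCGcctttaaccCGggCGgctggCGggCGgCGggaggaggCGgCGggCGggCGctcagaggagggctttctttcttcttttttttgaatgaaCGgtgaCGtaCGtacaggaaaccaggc
Mcl1 DHS at -88 bp, chr3:95658529-95658688, plus strand: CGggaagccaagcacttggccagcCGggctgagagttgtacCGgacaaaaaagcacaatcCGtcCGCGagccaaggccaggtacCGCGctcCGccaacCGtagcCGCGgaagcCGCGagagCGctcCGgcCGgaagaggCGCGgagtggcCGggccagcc
Bcl2l11 DHS at +1420 bp, chr2:128127378-128127537, plus strand: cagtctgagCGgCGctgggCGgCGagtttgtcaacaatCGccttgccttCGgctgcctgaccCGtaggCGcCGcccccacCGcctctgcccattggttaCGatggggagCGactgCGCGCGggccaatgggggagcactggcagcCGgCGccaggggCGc
Bbc3 DHS at +1740 bp, chr7:16310053-16310212, plus strand: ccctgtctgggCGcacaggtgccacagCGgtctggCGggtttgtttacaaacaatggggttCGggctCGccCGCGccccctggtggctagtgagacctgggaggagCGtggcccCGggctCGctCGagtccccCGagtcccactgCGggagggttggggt
Bcl2l1 DHS at +42564 bp, chr2:152789085-152789244, minus strand: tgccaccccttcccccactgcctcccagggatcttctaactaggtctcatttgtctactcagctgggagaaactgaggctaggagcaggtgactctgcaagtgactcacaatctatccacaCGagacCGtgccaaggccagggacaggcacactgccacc
Bcl2 DHS at +161224 bp, chr1:106552988-106553111, minus strand: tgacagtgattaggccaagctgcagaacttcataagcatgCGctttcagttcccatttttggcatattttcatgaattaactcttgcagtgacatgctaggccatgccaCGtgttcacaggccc
Bbc3 DHS at +18019 bp, chr7:16326332-16326491, plus strand: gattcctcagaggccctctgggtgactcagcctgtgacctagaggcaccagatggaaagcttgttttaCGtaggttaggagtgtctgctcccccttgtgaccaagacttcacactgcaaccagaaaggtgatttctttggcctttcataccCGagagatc
The Bcl2 promoter stretch held 24 CpG in 160 bases, the Mcl1 promoter stretch 20, the Bcl2l11 stretch 18 and the Bbc3 stretch at +1740 bp 13. The Bcl2l1 stretch, from an intron, held 2. The stretches from the Bcl2 intron and from the intron of Sae1 next to Bbc3, both lower in the Ikaros line, held 2 each. Capitals are a description of the sequence, and no binding was measured.

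Of the 50 DHS, 20 were promoter DHS, no more than 1000 bp from an annotated start site ( 40.0% against 25.87% of all DHS), 20 in introns, 4 in exons and 6 between genes. These classes use the basic set of GENCODE transcripts, and some DHS classed as intronic overlap exons of the full set. Among the promoter DHS, 16 were at a start site of the Bcl2 family gene itself and covered 9 genes. Pmaip1 had no DHS in its body or at its start, and its 3 DHS lay between genes, the nearest at -5062 bp. The dense neighbourhood of Bax brought in DHS of other genes: 3 of its 6 DHS were promoter DHS of Ftl1, Gm10252 or Gm22133. The 3 promoter DHS of Bad were also promoter DHS of Gpr137, and the Bak1 DHS at +413 bp was also a promoter DHS of Ggnbp1. Signal at such a DHS cannot be assigned to 1 of the genes.

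Values are log2 of normalised read density (RPKM scaled by TMM, then corrected for noise with ARSyN by the authors), so levels are per unit of length. Beyond that, DHS of different width were not put on a common footing. The median level of the 50 DHS was 4.43 over the 36 libraries, against 3.95 for all DHS and 4.57 for all promoter DHS. Among the strongest promoter DHS of each gene, Bad was highest with a mean of 5.53 at -14 bp, followed by Bcl2l1 with 5.42 at +173 bp, Bax with 5.23 at -16 bp, Mcl1 with 5.06 at +797 bp and Bbc3 with 4.94 at +1740 bp. The lower part of the order held Bak1 with 4.85 at +413 bp, Bcl2l11 with 4.79 at -109 bp, Bid with 4.30 at -34 bp and Bcl2 with 3.64 at -109 bp. Neighbours in this order from Bad to Bcl2l11 lay no further apart than the larger of their mean replicate SDs, apart from Bcl2l1 and Bax, while Bid and Bcl2 stood below by more than that. The guardian gene Bcl2 thus had the weakest promoter DHS of the 9, at percentile 11.7 of all promoter DHS, and Bad the strongest, at percentile 89.5. These DHS differed in width, for example 128 bp at Bad -14 bp and 962 bp at Bcl2l1 +173 bp. The part of width in this order was not tested.

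**Figure D1:**
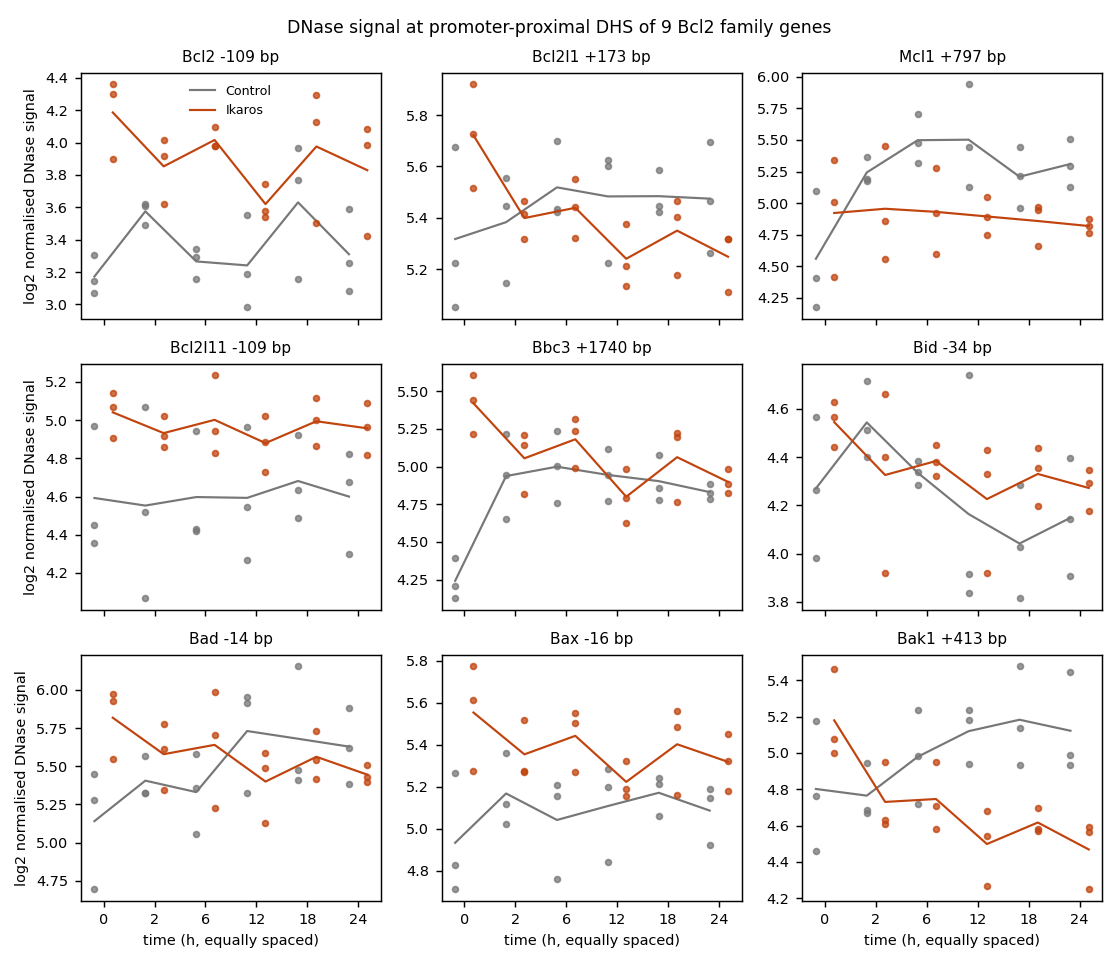
DNase signal (log2, vertical axis, a different range in each panel) at the strongest promoter DHS of each of 9 genes by time in hours (horizontal axis, equally spaced). Points are single libraries and lines join the means of 3 replicates, grey for Control and red for Ikaros. At Bbc3 +1740 bp the 3 Ikaros libraries at 0 h lie between 5.22 and 5.61 and the 3 Control libraries between 4.12 and 4.40, and at each later time the lines overlap.

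Differences between the lines passed the test at 0 h alone, though by overlap of their values 24 h was no smaller. Of the 50 DHS, 12 (24%) passed an adjusted p of 0.05 (limma over all 52788 DHS, Benjamini-Hochberg), 10 of them higher and 2 lower in the Ikaros line. Over all DHS the same test called 12.9%, 7.81% higher and 5.04% lower. Of the 16 promoter DHS at the genes' own start sites, 8 were higher (Bcl2, Mcl1, Bax, 2 of Bbc3 and 3 of Bad) and none lower, against 24.8% of all promoter DHS called higher. The median difference was 0.47 (log2) over these 16, against 0.34 over all promoter DHS, and 15 of the 16 differences were positive. The other 34 DHS had a median difference of 0.03. The values of the lines did not overlap at 15 of the 50 DHS (12 higher, 3 lower), while this held for 23.6% of all DHS. At all 12 called DHS the values of the lines did not overlap, which by itself fixes the same direction within each of the 3 batches. The count fell to 5 without replicate 6 of Control at 0 h and to 7 without replicate 4 of either line at 0 h. It was 0 after removal of trends with GC content, width and level in each library, and 0 when only the 0 h groups were fitted.

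From 2 h to 24 h no DHS of the family passed the test between the lines. Limma called 0 of the 50 at each of these 5 times, while its share of calls over all DHS, in order of time from 2 h on, was 0.195%, 0.578%, 1.31%, 0.699% and 1.33%. An unadjusted p under 0.05 was reached by 4, 12, 9, 11 and 10 of the 50 at these times, and by 10%, 13.8%, 15.8%, 13.1% and 14.7% of all DHS. Values of the lines did not overlap at 16 of the 50 DHS at 24 h, 4 higher and 12 lower in the Ikaros line, against 25.5% of all DHS. The median difference over the 50 was -0.08 at 24 h, and 0.06 over all DHS (log2). With a spread fitted per group 4 DHS were called at 24 h, all lower in the Ikaros line, and with quantile normalisation 1 was. The share of all DHS called under these fits is not given here, so the 4 and the 1 cannot be set against it.

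The change of the difference from 0 h to 24 h passed at 5 of the 50 DHS, all downward, where 6.26% of all DHS passed and 3.4% did so downward. They were Bbc3 at +312 bp and +1740 bp, Bak1 at +413 bp, Bcl2l11 at +1420 bp and Bcl2l1 at +42564 bp. Own promoter DHS made up 3 of the 5, and 3 of 16 compares with 10.1% of all promoter DHS. All 16 own promoter DHS had a negative change, with a median of -0.67 against -0.42 over all promoter DHS, while the other 34 had a median of 0.13. Within each of the 3 batches all 5 changes were negative, but the 5 were selected on these same libraries, so this is not separate support. From 2 h to 24 h, when both lines had received 4-OHT, the change passed at 0 of the 50 and at 0% of all DHS. An unadjusted p under 0.05 by limma was reached at 2 of the 50 and at 1503 (2.85%) of all DHS. That is fewer than the threshold alone would give by chance. The Ikaros 2 h mean was the highest of all group means at 0.0% of all DHS and the lowest at 0.0%. For the Control 24 h mean these shares were 0.089% and 0.0852%. In the deposited values these 2 groups thus lay inside the others, so this test cannot show that no change took place. The F-test of the interaction of line and time called 1 of the 50 (1.1% of all DHS), Bbc3 at +1740 bp. The F-test over the 6 times called 1 of the 50 in the Ikaros line (2.29%), Bcl2l1 at +42564 bp, and 0 in the Control line (0.148%), where 5 of the 50 and 12.6% of all DHS had an unadjusted p under 0.05. The count of 5 became 9 without replicate 5 of Control at 0 h, 2 without replicate 6 of Control at 0 h, replicate 6 of Control at 24 h, replicate 4 of Ikaros at 0 h or replicate 5 of Ikaros at 24 h, and 3 without replicate 4 of Control, replicate 4 of Ikaros or replicate 6 of Ikaros at 24 h. It was 0 after that removal of trends, and 0 when only the 4 groups were fitted.

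**Figure D2:**
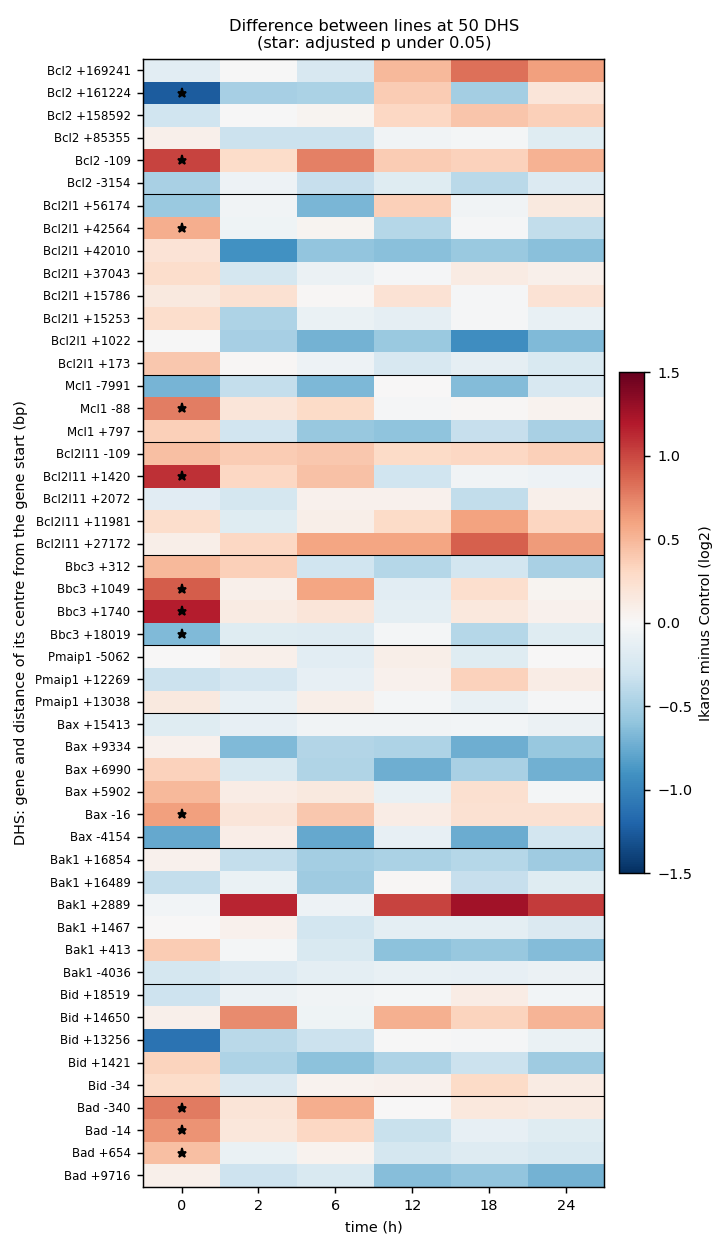
Ikaros minus Control difference (log2, colour scale) at the 50 DHS, in rows by gene and distance from the gene start, and at 6 times in columns. Stars mark an adjusted p under 0.05, and all 12 stars stand in the 0 h column.

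Among the guardians, the promoter DHS of Bcl2 at -109 bp (chr1:106714133-106714633) was low in the Control line. At 0 h its level was 3.14, 3.31 and 3.07 in the 3 Control libraries and 4.30, 4.36 and 3.90 in the 3 Ikaros libraries. All 3 Ikaros libraries lay above all 3 Control libraries. The difference was 1.01 ± 0.23 (log2, means of 3 against 3 libraries), or 2.02-fold, with an adjusted p of 0.00553 (limma). Each value after ± is the limma standard error, which rests on a spread pooled over all groups. It is therefore not the standard error of the compared libraries alone. At 0 h the replicate SD at this DHS was 0.251 for Ikaros and 0.12 for Control. At 24 h the means were 3.83 for Ikaros and 3.31 for Control, and the difference of 0.52 ± 0.23 was not called (adjusted p = 0.285). The Ikaros mean stood above the Control mean at each of the 6 times at this DHS.

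A DHS deep in the Bcl2 intron behaved in the opposite way. At +161224 bp (chr1:106552988-106553111, an intron that also lies in D630008O14Rik) the Control libraries at 0 h were at 4.36, 4.46 and 3.61 and the Ikaros libraries at 2.75, 2.35 and 3.57. The groups did not overlap, though their values in replicate 6 lay close together. The difference was -1.25 ± 0.35 (2.38-fold lower, adjusted p = 0.019, limma), and at 24 h it was 0.18 ± 0.35. Among the 6 Bcl2 DHS, 2 were called at 0 h, and the other 4 were not called at any time.

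Bcl2l1 had 8 DHS, and the DHS called at 0 h lay in an intron at +42564 bp (chr2:152788752-152789577) and was 825 bp wide. The 3 Ikaros libraries at 0 h were at 5.07, 5.01 and 5.24 and the 3 Control libraries at 4.60, 4.36 and 4.75. By 24 h the order was turned round, with Ikaros at 4.26, 4.00 and 4.38 and Control at 4.50, 4.73 and 4.52. The lines did not overlap at either time. The difference moved from 0.54 ± 0.16 (adjusted p = 0.0238) to -0.37 ± 0.16 (adjusted p = 0.253), a change of -0.91 ± 0.23 with an adjusted p of 0.0198 (limma). This DHS also changed over time within the Ikaros line (F-test, adjusted p = 0.00842), where the mean went from 5.11 at 0 h to 4.48 at 2 h and 4.21 at 24 h. In the Control line its mean stayed between 4.40 and 4.64. The neighbouring DHS at +42010 bp had a mean of 5.19 and was not called, with a difference of -0.91 ± 0.25 at 2 h (adjusted p = 0.125). The Bcl2l1 promoter DHS at +173 bp missed the threshold at 0 h, with 0.40 ± 0.16 and an adjusted p of 0.0813.

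Mcl1, whose short-lived protein guards many lymphocyte stages, had a called promoter DHS at -88 bp (chr3:95658431-95658968), which overlaps the first exon. The Ikaros libraries at 0 h were at 5.45, 5.15 and 5.33 and the Control libraries at 4.42, 4.94 and 4.29. The groups did not overlap, and the difference was 0.76 ± 0.20 (adjusted p = 0.0125, limma). At 24 h it was 0.05 ± 0.20. The stronger promoter DHS at +797 bp and the upstream DHS at -7991 bp were not called. At +797 bp the difference went from 0.36 ± 0.24 at 0 h to -0.49 ± 0.24 at 24 h, and that change of -0.85 ± 0.34 had an adjusted p of 0.115.

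Bbc3, which encodes Puma, a BH3-only protein induced by p53, showed the smallest adjusted p among the 50 DHS. At +1740 bp (chr7:16309873-16310393, near a later annotated start of Bbc3) the Ikaros libraries at 0 h were at 5.44, 5.61 and 5.22 and the Control libraries at 4.12, 4.20 and 4.40. The lowest Ikaros library stood well above the highest Control library. The difference was 1.18 ± 0.17 (adjusted p = 0.000153, limma). At 24 h the Ikaros libraries were at 4.98, 4.89 and 4.83 and the Control libraries at 4.89, 4.78 and 4.82, so that the difference was 0.07 ± 0.17. The change was -1.11 ± 0.23 (2.16-fold, adjusted p = 0.0108), and the interaction F-test over all times had an adjusted p of 0.0239. In means, the Control line went from 4.24 at 0 h to 4.94 at 2 h, and the Ikaros line from 5.42 to 5.06 (limma F-test over time in Control, adjusted p = 0.11).

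The other Bbc3 DHS moved in different ways. At +1049 bp (chr7:16309167-16309717) the Ikaros libraries at 0 h were at 5.61, 4.97 and 4.94 and the Control libraries at 4.10, 4.46 and 4.23, a difference of 0.91 ± 0.23 (adjusted p = 0.00979). At +312 bp (chr7:16308637-16308773) the difference was not called at 0 h (0.49 ± 0.20, adjusted p = 0.102) nor at 24 h (-0.49 ± 0.20, adjusted p = 0.219). Its change between these times was called at -0.98 ± 0.28 (adjusted p = 0.0369, limma). Downstream at +18019 bp (chr7:16326162-16326662, an intron of Sae1) the Ikaros libraries at 0 h were lower, at 3.62, 3.22 and 3.53 against 3.89, 4.19 and 4.26 (-0.66 ± 0.19, adjusted p = 0.0234).

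Bcl2l11, which encodes Bim, had its called DHS in the first part of the gene rather than at the start. At +1420 bp (chr2:128127208-128127708) the Ikaros libraries at 0 h were at 5.08, 4.92 and 4.50 and the Control libraries at 3.80, 4.01 and 3.41, without overlap. The difference was 1.09 ± 0.25, or 2.13-fold, with an adjusted p of 0.00553 (limma). At 24 h the groups overlapped, with Ikaros at 4.56, 4.23 and 4.31 and Control at 4.47, 4.19 and 4.68. The change of -1.17 ± 0.36 passed with an adjusted p of 0.0456, but with the replicate number as a block the adjusted p was 0.0586. The promoter DHS at -109 bp was not called, with 0.45 ± 0.21 at 0 h and 0.36 ± 0.21 at 24 h.

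Bad had 4 DHS, of which all 3 at its promoter, shared with Gpr137, were higher in the Ikaros line at 0 h. At -340 bp (chr19:6941264-6941778) the Ikaros libraries were at 5.55, 5.79 and 5.83 and the Control libraries at 4.67, 5.43 and 4.73 (0.78 ± 0.20, adjusted p = 0.00973, limma). The DHS at -14 bp differed by 0.68 ± 0.22 (adjusted p = 0.0393). The DHS at +654 bp differed by 0.45 ± 0.15, with an adjusted p of 0.0483 that became 0.0589 with the replicate block. None of the 4 was called at 24 h, and the exonic DHS at +9716 bp came nearest there, with -0.71 ± 0.20 and an adjusted p of 0.0642.

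No DHS of Bid or Pmaip1 passed any of the 11 tests. The Bid promoter DHS at -34 bp had a difference of 0.28 ± 0.21 at 0 h and 0.12 ± 0.21 at 24 h. The Bid DHS at +1421 bp, also a promoter DHS of Gm44260, went from 0.33 ± 0.29 to -0.54 ± 0.29. The strongest Pmaip1 DHS, at -5062 bp, was among the steadiest, since its 12 group means spanned 0.27 (log2), with differences of 0.01 ± 0.17 at 0 h and at 24 h.

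Of the effectors, Bax had a called promoter DHS at -16 bp (chr7:45466645-45467183). The Ikaros libraries at 0 h were at 5.27, 5.61 and 5.77 and the Control libraries at 4.83, 5.26 and 4.71, and the lowest Ikaros library was just above the highest Control library. The difference was 0.62 ± 0.16 (adjusted p = 0.0127, limma), against 0.23 ± 0.16 at 24 h. The DHS at +6990 bp, a promoter DHS of the ferritin light chain gene Ftl1 and of Gm10252, was not called at 24 h, with -0.72 ± 0.24 and an adjusted p of 0.121.

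Bak1 had no called DHS at any single time, but its promoter DHS at +413 bp (chr17:27028482-27028710) was called for the change from 0 h to 24 h. At 0 h the Ikaros libraries were at 5.46, 5.08 and 5.00 and the Control libraries at 5.18, 4.46 and 4.76, which overlapped. At 24 h the Ikaros libraries were at 4.56, 4.59 and 4.25 and the Control libraries at 4.99, 4.93 and 5.45, which did not. The difference went from 0.38 ± 0.19 to -0.65 ± 0.19, a change of -1.03 ± 0.27 (2.04-fold, adjusted p = 0.0252, limma). The difference at 24 h alone was not called (adjusted p = 0.0758). The whole DHS lies in untranslated exon sequence of Bak1 or Ggnbp1, so its bases are not shown.

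**Figure D3:**
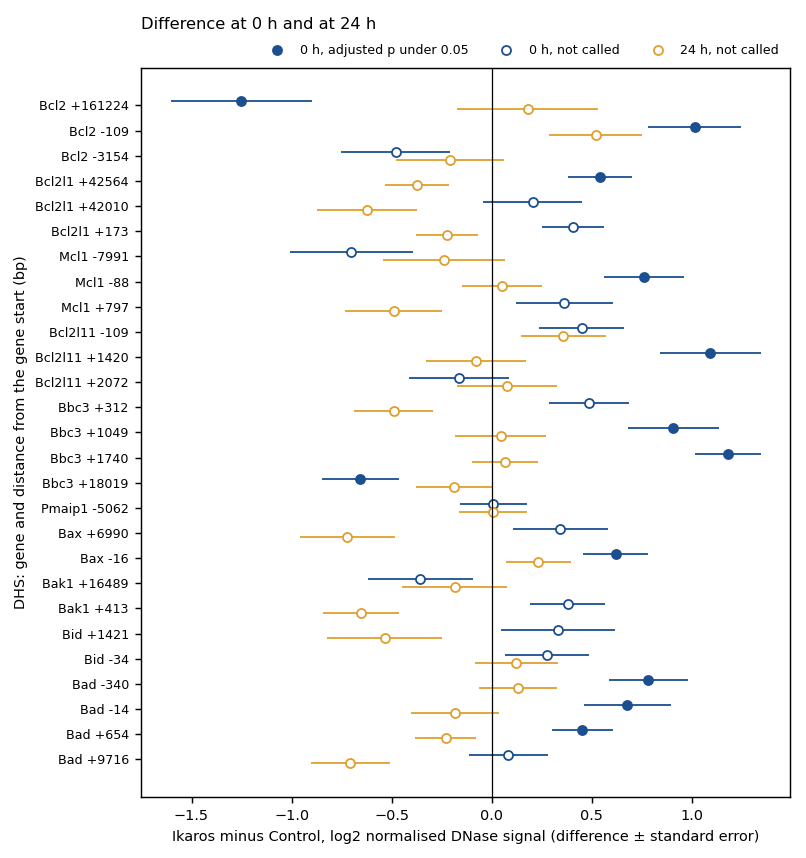
Ikaros minus Control difference (log2, horizontal axis) with its standard error at 0 h (blue) and at 24 h (orange) for 27 DHS, in rows by gene and distance from the gene start. Filled points had an adjusted p under 0.05, and they occur at 0 h alone, 10 to the right of 0 and 2 to the left.

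GC content moved with the 0 h difference. Over the 50 DHS, GC content and the difference at 0 h had a Pearson correlation of 0.75 (Spearman 0.74), against 0.44 over all 52788 DHS, as a description across DHS that share the same 6 libraries. The correlation over the 50 was -0.05 at 24 h, against -0.36 over all DHS. With the change from 0 h to 24 h the correlation was -0.63 over the 50 and -0.55 over all DHS. The 10 DHS called higher at 0 h had a median GC content of 68.1% (range 54.2% to 77.0%), the 2 called lower 49.1% and the 38 others 53.4%. CpG density showed the same division, with a median of 9.12 CpG per 100 bases in the 10 higher DHS and 1.76 in the 38 not called. Of the 10, 9 had over 5 CpG per 100 bases, and the exception was the Bcl2l1 intronic DHS with 0.97. Of the 38 not called, 6 were also over 5. The 10 were also wider than the rest of the 50, with a median of 524.5 bp against 156 bp for the 38 not called. The median width of all DHS was 500 bp. After removal in each library of the trends with GC content, width and level, the difference at 0 h became 0.26 for Bbc3 at +1740 bp, 0.16 for Bcl2l11 at +1420 bp and -0.03 for Bcl2 at -109 bp, and none of the 12 remained called.

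**Figure D4:**
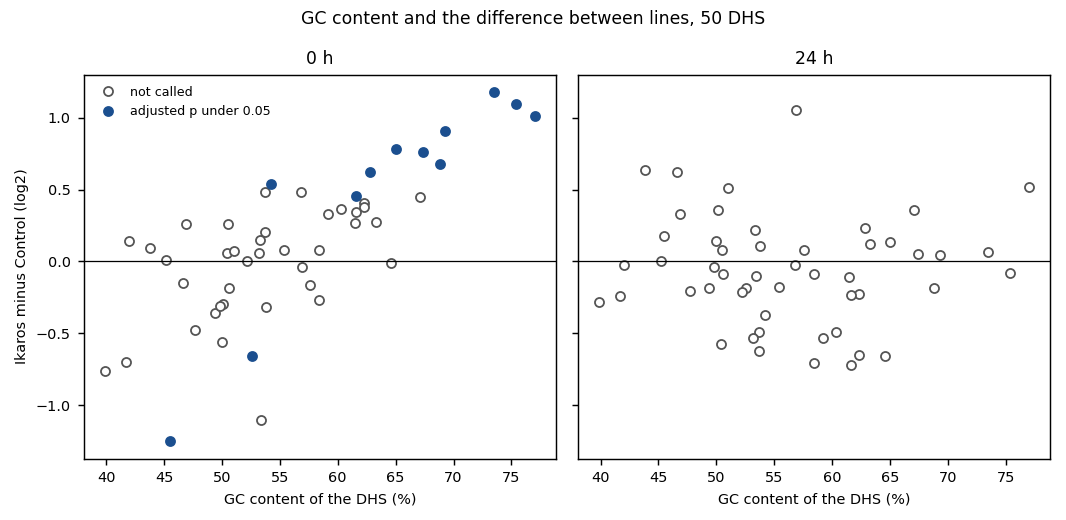
GC content of each of the 50 DHS in % (horizontal axis) and the Ikaros minus Control difference (log2, vertical axis) at 0 h on the left and at 24 h on the right. Blue points had an adjusted p under 0.05. The points rise from left to right at 0 h (Pearson 0.75) and do not at 24 h (Pearson -0.05).

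The 12 group means of each DHS were put in order. The Ikaros 0 h mean was the highest of the 12 group means at 18 of the 50 DHS and at 12 of the 16 own promoter DHS, against 23.9% of all DHS and 45.7% of all promoter DHS. It was also the lowest at 9 of the 50 (25.3% of all DHS), but at 0 of the 16. The Control 0 h mean was the lowest at 6 of the 16, close to the 36.5% of all promoter DHS. Among the later groups, the Control 18 h mean was the highest at 12 of the 50 (10.2% of all DHS) and the lowest at 9 (11.3%). Spread between replicates was larger in the 0 h Ikaros libraries than later in that line, with a median SD over the 50 DHS of 0.27 at 0 h and 0.16 to 0.19 from 2 h on. Over all DHS the same held, with 0.343 at 0 h and 0.199 to 0.216 from 2 h on. In the Control line the median SD lay between 0.18 and 0.35 over the 50, and between 0.268 and 0.401 over all DHS.

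Genes that work with the family were read at their promoter DHS, and the counts stand beside 24.8% of all promoter DHS called higher at 0 h and 10.1% with a called downward change. Of 15 other Bcl2 family genes, 7 had a promoter DHS, and 2 of these 7 DHS were higher at 0 h, Bnip3l (0.83 ± 0.19, adjusted p = 0.00453) and Bnip3 (0.53 ± 0.16, adjusted p = 0.0247), both mitophagy receptors. Both also had a called downward change from 0 h to 24 h. Among the apoptosome and caspase genes, which carry the signal on after cytochrome c is released, 4 of 13 DHS were higher at 0 h (Apaf1, Casp9, Casp2 and Diablo). Of the 5 DHS of inhibitors of apoptosis, 3 were higher at 0 h (Birc5, Birc6 and Xiap) and 2 changed downward (Birc6 and Xiap). In the death receptor pathway 2 of 11 DHS were higher at 0 h (Ripk1 and Tradd) and none changed. Among upstream regulators, 7 of 9 DHS were higher at 0 h, in Mdm2, Mdm4, Trp53, Foxo1, Foxo3 and Myc, and 3 changed downward. No DHS of these lists was called lower at 0 h, and no list was tested as a set. At 24 h 1 DHS of these lists was called, that of Myc, lower in the Ikaros line (-0.60 ± 0.14, adjusted p = 0.0321, limma).

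Cell identity was read in the same way. Promoter DHS were present at 8 of 10 pre-B marker genes (Cd79a, Cd79b, Pax5, Ebf1, Vpreb1, Igll1, Rag1 and Blnk, with levels of 3.91 to 5.99). None of 5 T-cell and 2 muscle genes had a promoter DHS, 1 of 5 myeloid genes had one (Lyz2) and 1 of 3 erythroid genes (Klf1). The Klf1 DHS was higher in the Ikaros line by 0.65 ± 0.19 at 0 h (adjusted p = 0.0237) and had a change from 0 h to 24 h of -1.09 ± 0.27 (adjusted p = 0.0205, limma). Of the 9 pre-B DHS none was called at 0 h and 1, at Pax5, changed downward (-1.02 ± 0.28, adjusted p = 0.0292). The part of cell composition in the family's differences was not tested.

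Group patterns of these promoters were shared with many other promoters. The promoter DHS whose 12 group means were most like those of Bcl2 at -109 bp was that of Commd5 (Pearson 0.998), and for Bax at -16 bp it was that of Mtx1 and Thbs3 (0.998). For Bbc3 at +1740 bp it was that of Fhod1 and Slc9a5 (0.991), and for Bak1 at +413 bp that of Cenpn and Cmc2 (0.995). Between 33 promoter DHS (for Bid) and 924 (for Bax) were over 0.9, and the group means of the table span only 6 of 11 possible dimensions.

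Promoter sequences of the family were searched for 7 motifs. RefSeq promoters (GRCm38, 250 bases before to 50 after the start) were matched for 9 of the 10 genes with 15 windows, and letters were searched on both strands. The Ikaros core TGGGAA was in 3 of the 15 windows (Bad and Bax), where 25.6% of all 32851 windows held it. The Ets core CCGGAA was in 5 windows (14.9% of all), and the Foxo motif GTAAACA in 2, in Bbc3 and Bcl2l11 (3.65% of all). The E-box CACGTG was in 2 windows, in Bax and Bbc3 (7.15%), the E-box CAGGTG in 3 (20.2%), the Runx motif TGTGGT in 1 (16.8%) and the cyclic AMP response element TGACGTCA in 0 (1.79%). These are matches of letters and not sites of binding.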

How the data were processed

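DNase-seq of 36 B3 libraries was read from 1 table. Per the study's methods, the authors aligned reads to mm10 with Bowtie2, used HOMER for peaks per replicate, built a consensus list, counted reads with bedtools, dropped low DHS and normalised by RPKM and TMM. ARSyN then removed structured noise. The deposited values are log2, which was settled from the values: base 2 gives 369487 to 432755 RPM in DHS and base e more than a library can hold. Library medians were 3.90 to 4.11. The study gives a minimum depth but the sources used here none per library, so no counting interval is given, and precision is limited by how many libraries there are. The group means span 6 of 11 possible dimensions and the residuals 23 of 24, so groups borrow from each other and p-values may be too small. The replicates are biological per the study's methods.

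Values were tested as deposited with limma 3.58.1 in R 4.3.3 (12 group means, intensity trend, two-sided, 24 residual degrees of freedom) over all DHS, with Benjamini-Hochberg adjustment and a threshold of 0.05. The fit was run on simulated data with independent noise and a log2 rise of 2 at 200 DHS in the Ikaros line at 24 h. Those data lacked the shared structure of the deposited values, so they do not check the p-values given here. There were 11 tests: 6 differences, 2 changes and 3 F-tests. Replicate numbers mark shared batches in the labels and so pair the samples. Residuals of same-numbered Ikaros and Control libraries correlated by -0.18 to 0.18 (median -0.02, 3 of 18 pairs over 0.1).

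DHS were named by rule: the strongest promoter DHS of each gene, the strongest other DHS of its window, and up to 15 DHS past the threshold in any test. Other DHS named here were called, or lie next to these. Members, lists and rules were chosen with earlier results of these data known. Alternatives were a replicate block, fitting only the groups compared, a spread per group, no intensity trend, log2(RPKM + 1), quantile normalisation, removal of trends with GC content, width and level, leaving out the lowest 25% of DHS, gene bodies alone (for the median differences) and leaving out libraries.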

Additional observations from a re-analysis of the deposited data

Results flagged for a closer look

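At 5 DHS the difference between the Ikaros and Control lines was not the same at 0 h and at 24 h by a test of the change itself (limma, adjusted p under 0.05). The change (log2, 24 h minus 0 h) was -0.915 at Bcl2l1 +42564 bp, -1.17 at Bcl2l11 +1420 bp, -0.976 at Bbc3 +312 bp, -1.11 at Bbc3 +1740 bp and -1.03 at Bak1 +413 bp. At Bbc3 +1740 bp the difference also varied over the 6 times (interaction F-test, adjusted p = 0.0239). The 0 h cells were collected separately and, per the study's methods, without 4-OHT, and these cannot be told apart. Groups held 3 libraries each, and single libraries that stand apart were not tested for in groups of that size.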

How the results depend on the processing

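The count of 12 DHS at 0 h became 0 when only the 0 h groups were fitted, 2 with a spread per group, 5 with quantile normalisation and 0 with the trends with GC content, width and level removed. Leaving out libraries gave 2 to 11, with 2 without replicate 4 in all groups and 3 without replicate 6. With the trends removed the Bcl2 DHS at -109 bp turned sign (-0.03085, adjusted p = 0.962, limma). Bbc3 at +1740 bp kept its call in 15 of 17 alternative fits (adjusted p from 0.000122 to 0.377, limma), and Bad at +654 bp kept it in 2 of 17. With gene bodies alone the median difference at 0 h was 0.264, against 0.117 over the 50 DHS. The 0 at 12 h became 1 (Bax +6990 bp) without Control replicate 4 of that time, and the 0 at 18 h became 1 (Bak1 +2889 bp) without Control replicate 6, so leave-outs ranged from 0 to 1. At 24 h the count was 4 with a spread per group and 1 with quantile normalisation.

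The count of 5 for the change from 0 h to 24 h became 0 when only the 4 groups were fitted, 3 with a spread per group, 1 with quantile normalisation and 0 with the trends removed, and leave-outs gave 0 (without replicate 5 or 6 in all groups) to 9 (without replicate 5 of Control at 0 h). Without replicate 4 in all groups, each of the 5 named DHS lost its call for the change too. The interaction count of 1 became 0 with a spread per group, with quantile normalisation and with the trends removed, and leave-outs gave 0 (without replicate 4 or 6 of Control or replicate 4 or 5 of Ikaros at 0 h, or any replicate in all groups) to 2 (without replicate 5 of Control at 2 h). The count of 1 over time in the Ikaros line became 6 when only that line was fitted and 2 without the lowest 25% of DHS. Leave-outs gave 0 (without replicate 4 of Ikaros at 0 h, or any replicate in all groups) to 2 (without replicate 6 of Ikaros at 0 h or at 24 h), and with the trends removed the Bcl2l1 DHS lost its call. For none of the alternative fits and leave-outs is the share of all DHS called given here. Their counts therefore cannot be set against it or read as a result about the family.

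With the replicate block, which pairs libraries of a batch, the counts were 11 at 0 h, 4 for the change, 1 for the interaction and 1 over time in the Ikaros line. The calls lost were Bad at +654 bp (adjusted p = 0.0589) and Bcl2l11 at +1420 bp (adjusted p = 0.0586), and the block changed no other call. The causes of these shifts were not tested. The deposited values hold no counts, and the depth of each library was not given in the sources used here, so low DHS have no counting error.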

Other observations

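Away from the promoters, 3 narrow DHS in introns of family genes, chosen after their values were seen, had differences of around 1 (log2) that did not pass the test. A 130 bp DHS lay in an intron of Bak1 at +2889 bp (chr17:27026055-27026185), and in the full GENCODE annotation all of it is exon sequence of Ggnbp1. This DHS stood higher in the Ikaros line at 4 times, 2, 12, 18 and 24 h, by 1.14, 1.01, 1.27 and 1.05 (log2, standard error 0.47, adjusted p = 0.389, 0.291, 0.225 and 0.287, limma). At 24 h its Ikaros libraries were at 4.37, 3.93 and 4.28 and its Control libraries at 3.03, 3.26 and 3.135, without overlap. Its Control libraries varied widely at other times, for example 2.50, 1.52 and 4.11 at 18 h. At 0 h and 6 h the differences were -0.04 and -0.08.

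A Bcl2l11 intronic DHS at +27172 bp had a positive difference of means at all 6 times, from 0.09 at 0 h to 0.90 at 18 h, each with a standard error of 0.57 and none called. In batches 11, 12 and 13 the difference was 0.01, 2.18 and -0.42 at 6 h. It was -0.53, 1.96 and 0.34 at 12 h, and 1.16, 0.61 and 0.93 at 18 h. Control replicate 5 at 6 h was at 1.09, and the mean level of this DHS was at percentile 17.8 of all DHS. At Bid +13256 bp the Ikaros libraries at 0 h were at 4.06, 2.30 and 3.78 and the Control libraries at 4.20, 4.24 and 5.00, a difference of -1.10 ± 0.43 with an adjusted p of 0.085 (limma).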
